A study of Mus musculus with 2 samples.

Results

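The 8 genes described here, Retnla, Mgl2, Chil3, Clec10a, Mrc1, Folr2, Ear2 and Il4ra, are markers or the receptor of alternative macrophage activation, and they were taken by symbol from the 31053 genes of the count tables. Single-cell 3' RNA was sequenced on the 10x Chromium platform from monocytes and macrophages of mouse skin wounds, 6 days after injury. There were 2 libraries, 1 from non-diabetic and 1 from diabetic mice, and each held cells pooled from 2 mice. The labels name neither the diabetic model nor the strains, ages or sexes, and they speak of mice per strain, so that diabetes, strain and library preparation cannot be told apart. Cells were kept where they had 500 or more genes and less than 10% mitochondrial UMIs (unique molecular identifiers, which count captured RNA molecules). This left 1123 of 2026 non-diabetic barcodes with 15429273 UMIs, a median of 14079 per cell, and 1755 of 2214 diabetic barcodes with 30435047 UMIs, a median of 16314 per cell. With 1 library per group there was no replicate check, so no test was made. All 95% intervals are for counting error only (exact Poisson for levels, exact binomial for ratios, Clopper-Pearson for shares of cells).

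The cytokines IL-4 and IL-13 act on macrophages through receptors that contain the chain encoded by Il4ra, and JAK kinases at the receptor then activate the transcription factor STAT6. In mouse macrophages this raises a set of genes that includes Arg1, Retnla, Chil3 and the lectin receptor genes Mrc1, Clec10a and Mgl2. Several of these genes are also known outside that response: Chil3 in blood monocytes, Mrc1 and Folr2 in tissue-resident macrophages, and Mgl2 and Clec10a in dermal dendritic cells.

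The 8 genes did not move together between the libraries. Levels are given as CPM, the UMIs of a gene scaled to the UMI total of the cells summed. Summed over all kept cells, Mrc1 and Folr2 were at least 2-fold higher in the diabetic library and Retnla, Mgl2 and Chil3 at least 2-fold lower, while Clec10a, Ear2 and Il4ra differed by less than 2-fold. These counts of 2 higher and 3 lower stand beside 9.06% and 6.54% of the 12337 genes with at least 20 UMIs that were that much higher or lower. The median log2 ratio, diabetic over non-diabetic, was -0.87 for the 8 genes and 0.12 for all measured genes. With edgeR TMM or DESeq2 size factors, which moved the median of all genes to 0.01 and 0.00, 1 of the 8 was 2-fold higher and 4 were 2-fold lower, and no member changed direction. A summed level cannot tell fewer cells of a type from less RNA per cell, so levels are given by cell cluster below.

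**Figure D1:**
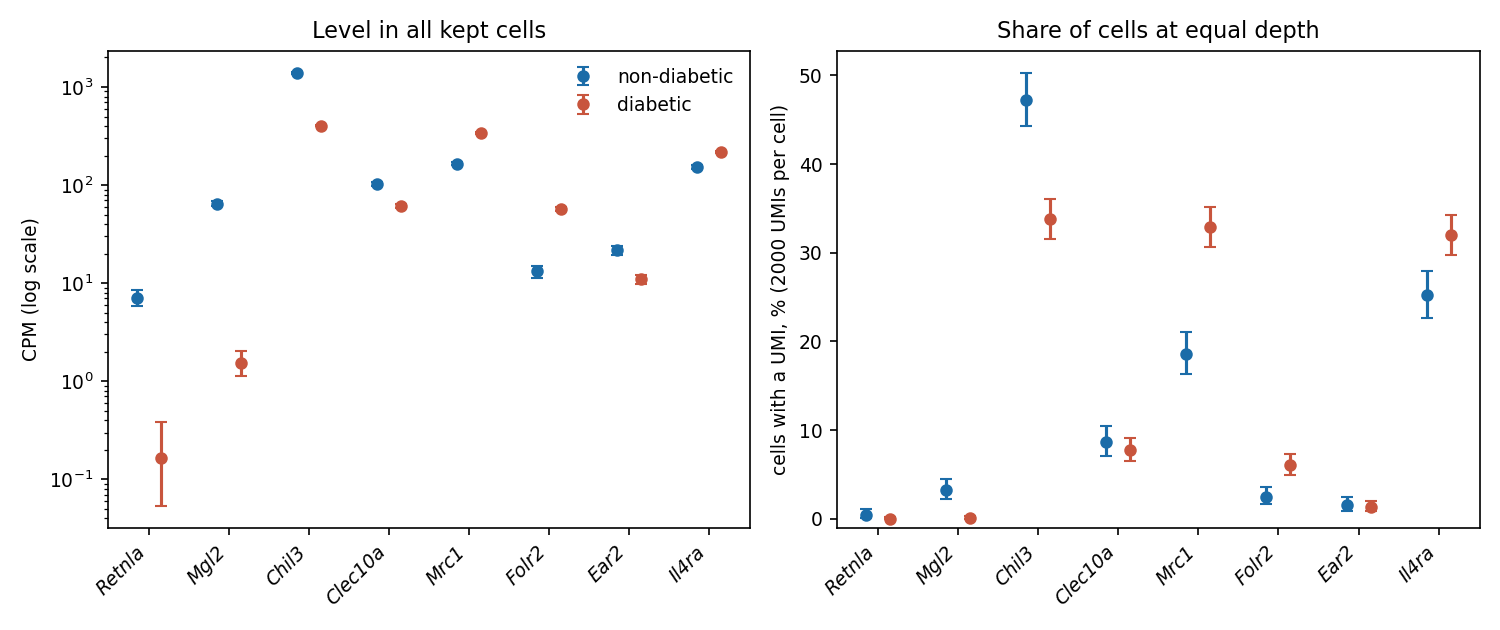
Left, the level of each gene in CPM (log scale) summed over all kept cells of the non-diabetic (blue) and diabetic (red) library, with exact Poisson 95% intervals. Right, the share of cells with a UMI after each cell was thinned to 2000 UMIs, with Clopper-Pearson 95% intervals; Mrc1, Folr2 and Il4ra are higher in the diabetic library in both panels, and Mgl2 and Chil3 lower.

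Cells were clustered without the 8 genes, which gave 16 clusters, called here by a leading gene, except the classical monocyte-like cluster, called monocyte-like. In 11 of them at least 90% of the cells came from 1 library, which leaves cell type and library hard to separate there. The naming rule, given with the processing below, was met by 7 clusters. The monocyte-like cluster held 164 non-diabetic and 166 diabetic cells. The Tmem176b-led cluster was macrophage-like (10 and 277, with Ighm and Cd79b also among its leading genes), and the Ccl8-led cluster resident-like macrophage (17 and 52). The Cd209a-led cluster was conventional dendritic cell-like (123 and 64), the Ifit3-led cluster interferon response-like (177 and 35), and the Retnlg-led cluster neutrophil-like (0 and 16). The Ctsk-led cluster (4 and 47) met the cycling marker set, while its leading genes Ctsk, Atp6v0d2 and Acp5 are known from osteoclasts, and it is called by its leading gene only. Of the unnamed clusters, the Inhba-led one held 302 non-diabetic and 2 diabetic cells, the Impa2-led one 144 and 4, the Stfa3-led one 1 and 312, the Nrg1-led one 1 and 359, and the Cd163-led one 11 and 167. The collagen genes Col1a1, Col3a1 and Col1a2 were among the leading genes of the Cd163-led cluster. There 1 of the 11 non-diabetic cells held all 1521 of their Col1a1 UMIs, and the 167 diabetic cells had 11 in 10 cells. This cluster had 5 of 10 resident-like macrophage markers. It stayed unnamed because more of its leading genes, these collagen genes, belonged to the fibroblast marker set. The Igfbp7-led cluster (103 and 36) was mixed and led in part by the endothelial genes Plvap and Emcn. Over all kept cells the macrophage markers summed to 6029 CPM in the non-diabetic and 10412 in the diabetic library, the classical monocyte markers to 6756 and 4495, and the dendritic cell markers to 316 and 72.1.

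**Figure D2:**
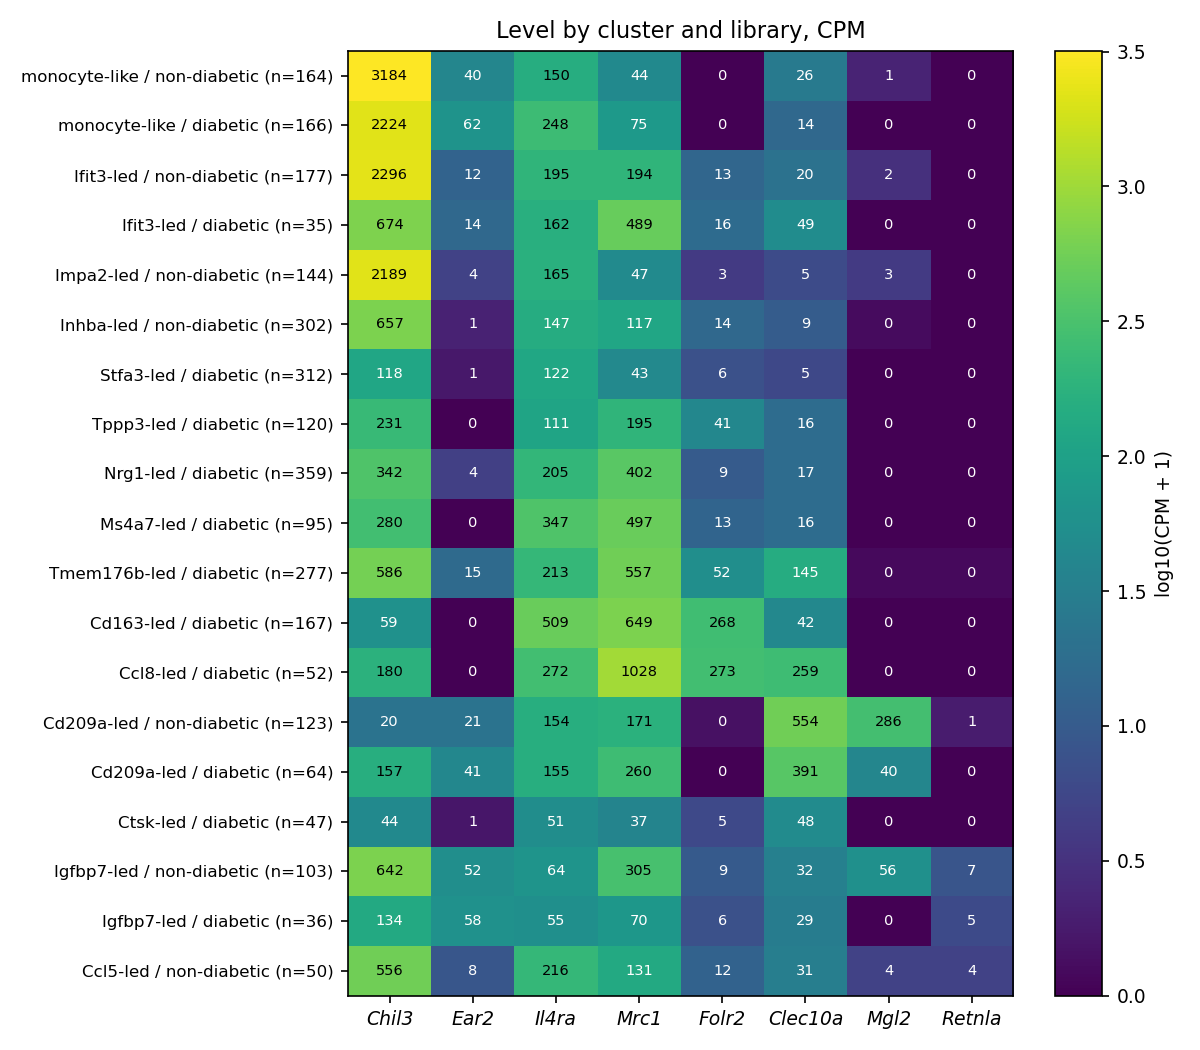
Level of each gene in CPM, rounded, in each cluster and library with at least 30 cells (n, number of cells); colour gives log10 of the level plus 1. Chil3 is highest in the monocyte-like cluster, Folr2 in the Ccl8-led and Cd163-led clusters, and Clec10a and Mgl2 in the Cd209a-led cluster.

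Chil3 encodes a secreted chitinase-like protein, also called Ym1, and spans chr3:106147554-106167564 on the minus strand of mm10. It had 21436 UMIs in the non-diabetic and 12307 in the diabetic library, or 1389 (1371 to 1408) and 404 (397 to 412) CPM. The diabetic level was 3.44-fold lower, a log2 ratio of -1.78 (-1.81 to -1.75). The share of cells with a UMI was nearly the same, at 62.1% and 60.3%, but with every cell thinned to 2000 UMIs it was 47.2% and 33.8%, and the median count in a cell with the gene was 15 UMIs against 5. The libraries thus differed more in Chil3 per cell than in the share of cells with any.

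Among clusters with at least 30 cells of a library, Chil3 was highest in the monocyte-like cluster, but most of its UMIs lay in other clusters. Its level in the monocyte-like cluster was 3184 CPM in the non-diabetic and 2224 in the diabetic library, and 76.4% and 83.5% of the thinned cells there had a UMI. In the non-diabetic library the monocyte-like, Ifit3-led and Impa2-led clusters held 36.2%, 26.1% and 20.9% of all Chil3 UMIs. The non-diabetic Ifit3-led and Impa2-led cells were at 2296 and 2189 CPM. The Impa2-led cluster met the naming rule for 0 of 9 classical monocyte markers, and for no marker of any other set. That rule asks for 2-fold over the other cells, so it does not show that these markers were absent. In the diabetic library the monocyte-like cluster held 42.0% and the Tmem176b-led macrophage-like cluster 20.2%. The dendritic cell-like cluster was low, at 20.5 and 157 CPM, and so was the diabetic Cd163-led cluster, at 58.5. The classical monocyte markers, summed over all kept cells, were also lower in the diabetic library, and their part in the Chil3 ratio was not tested. With the clusters that came mostly from 1 library left out, the Chil3 log2 ratio was -0.67.

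The sequence before the start of Chil3 (chr3:106167565-106167814, minus strand, 250 bases; RefSeq promoter table, GRCm38.p6) is shown because it holds a STAT-type palindrome of the form TTCNNNGAA, 172 to 164 bases before the start, and the letters of an ETS-type motif on the minus strand of the gene, ACTTCCT, 60 to 54 bases before it. Capitals mark both matches.
Chil3 promoter: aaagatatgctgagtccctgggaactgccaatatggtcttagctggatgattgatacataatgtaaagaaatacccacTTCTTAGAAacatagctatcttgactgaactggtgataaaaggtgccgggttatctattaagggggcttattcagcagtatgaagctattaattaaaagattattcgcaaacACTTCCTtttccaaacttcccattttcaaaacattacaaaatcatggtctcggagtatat

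Mrc1 encodes the mannose receptor CD206 and spans chr2:14229392-14332057 on the plus strand. It had 2551 UMIs in the non-diabetic and 10349 in the diabetic library, or 165 (159 to 172) and 340 (334 to 347) CPM, a 2.06-fold higher diabetic level and a log2 ratio of 1.04 (0.98 to 1.10). After thinning, 18.6% and 32.9% of cells had a UMI. Its place at the 2-fold line depended on the scaling, with a log2 ratio of 0.93 with TMM and 0.92 with DESeq2 size factors.

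Folr2, which encodes folate receptor beta, a surface protein of tissue-resident macrophages, spans chr7:101839988-101857194 on the minus strand. It had 203 and 1724 UMIs, or 13.2 (11.4 to 15.1) CPM in the non-diabetic and 56.6 (54.0 to 59.4) in the diabetic library. The log2 ratio was 2.11 (1.90 to 2.32), a 4.31-fold higher diabetic level, and 2.49% and 6.07% of thinned cells had a UMI. Under the filter of at least 1000 genes and less than 5% mitochondrial UMIs the Folr2 log2 ratio was 3.07. Annotated transcripts of Folr2 match the gene model Gm10602 at 100% over 475 bases, so reads of these 2 could be split or dropped in counting.

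Both genes were high in the Ccl8-led resident-like cluster and in the unnamed Cd163-led cluster. Mrc1 stood at 874 CPM in the 17 non-diabetic and at 1028 in the 52 diabetic cells of the Ccl8-led resident-like cluster. In the Cd163-led cluster it was at 585 in 11 non-diabetic and 649 in 167 diabetic cells. In the Tmem176b-led cluster it was at 730 in 10 non-diabetic and 557 in 277 diabetic cells. In the Ifit3-led cluster it was at 194 in 177 non-diabetic and 489 in 35 diabetic cells. It was at 497 in the diabetic Ms4a7-led and 402 in the diabetic Nrg1-led cluster, which held 10 and 1 non-diabetic cells. In the monocyte-like cluster it was 44.3 and 74.8. Folr2 was at 192 and 273 CPM in the Ccl8-led cluster and at 173 and 268 in the Cd163-led cluster, which held 54.6% of all diabetic Folr2 UMIs. The monocyte-like cluster had 0 Folr2 UMIs in 164 non-diabetic and in 166 diabetic cells. The dendritic cell-like cluster, where Mrc1 was at 171 and 260 CPM, had 1 Folr2 UMI in the non-diabetic and 0 in the diabetic library. The resident-like macrophage markers summed to 1329 and 3490 CPM over all kept cells, higher in the diabetic library as Mrc1 and Folr2 were, and their part in these ratios was not tested.

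The neutrophil-like cluster, which should lack these receptors, gives a sense of RNA from other cells. In its 16 diabetic cells, with a median of 4820.5 UMIs, 3 cells had Mrc1 and 2 had Folr2, and 56 of the 79 Mrc1 UMIs were in 1 cell. After thinning, 2 of 14 of these cells had Mrc1 (14.3%, 1.78% to 42.8%) and 0 of 14 had Folr2, an interval too wide to set a background. The 0 Folr2 UMIs in the monocyte-like cells of both libraries are the tighter measure for that gene.

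The sequences before Mrc1 (chr2:14229164-14229391, plus strand) and Folr2 (chr7:101857195-101857440, minus strand) are shown as those of the 2 members that were most often in the same clusters. Capitals mark AGGAAGT or its reverse complement ACTTCCT, which is the core of ETS-family motifs such as that of PU.1, a factor of all myeloid cells. Mrc1 has 1 match, 189 to 183 bases before the start, and Folr2 has 2, at 133 to 127 and at 78 to 72. Folr2 also has another listed start, inside the annotated gene. Its window was cut to 0 bases and was not searched.
Mrc1 promoter: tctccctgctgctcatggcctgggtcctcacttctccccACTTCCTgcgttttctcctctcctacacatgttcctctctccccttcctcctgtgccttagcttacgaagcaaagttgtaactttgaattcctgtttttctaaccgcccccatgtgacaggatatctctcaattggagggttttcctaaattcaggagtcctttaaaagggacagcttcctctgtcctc
Folr2 promoter: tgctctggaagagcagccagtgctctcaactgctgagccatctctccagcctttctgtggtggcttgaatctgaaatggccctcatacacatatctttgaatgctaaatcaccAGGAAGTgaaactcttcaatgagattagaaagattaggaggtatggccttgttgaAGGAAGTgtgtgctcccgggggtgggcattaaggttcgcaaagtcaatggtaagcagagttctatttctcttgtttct

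Clec10a and Mgl2 encode the galactose-type lectins CD301a and CD301b, and they are neighbours on the plus strand of chromosome 11, Mgl2 at chr11:70130329-70137550 and Clec10a at chr11:70156197-70170834. Their transcripts align at 96.9% identity over 700 bases, so reads in that stretch can go to either gene or be dropped, and a small level of one beside the other is uncertain. Clec10a had 1594 UMIs in the non-diabetic and 1872 in the diabetic library, or 103 (98.3 to 109) and 61.5 (58.8 to 64.4) CPM. The log2 ratio was -0.75 (-0.85 to -0.65), 1.68-fold lower in the diabetic library, although the thinned share of cells was close, at 8.66% (7.05% to 10.5%) and 7.75% (6.53% to 9.11%). Mgl2 had 999 UMIs in 73 non-diabetic cells and 47 UMIs in 14 diabetic cells, or 64.7 (60.8 to 68.9) and 1.54 (1.13 to 2.05) CPM. This was 41.9-fold lower in the diabetic library, a log2 ratio of -5.39 (-5.84 to -4.97).

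Both lectin genes were highest in the dendritic cell-like Cd209a-led cluster, and Clec10a was also spread over macrophage clusters. Clec10a was at 554 and 391 CPM in the Cd209a-led cluster, which held 83.3% of its non-diabetic but 24.0% of its diabetic UMIs. In the diabetic library 32.9% of Clec10a UMIs were in the macrophage-like Tmem176b-led cluster (145 CPM) and 17.1% in the resident-like Ccl8-led cluster (259). With dendritic cell-like, neutrophil-like and mixed clusters left out, the direction turned, to a Clec10a log2 ratio of 1.38, higher in the diabetic library. Mgl2 was at 286 CPM in the non-diabetic and 40.0 in the diabetic Cd209a-led cells, where 685 of its 999 and 46 of its 47 UMIs lay. Of these cells, 48 of 123 and 13 of 64 had an Mgl2 UMI. Outside this cluster, the 17 non-diabetic resident-like cells had 14 Mgl2 UMIs in 4 cells. The ratio was thus smaller among the dendritic cell-like cells, with an Mgl2 log2 ratio of -2.84 (-3.30 to -2.41) there, or -3.16 without the top cell of each library. Dendritic cell markers were lower in the diabetic library over all kept cells, and their part in the Mgl2 ratio was not tested.

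Within the dendritic cell-like cluster, cells with and without Mgl2 were compared for other genes. In the diabetic library Cd209a, a lectin gene of monocyte-derived and dermal dendritic cells, was detected in 13 of 13 cells with Mgl2 and in 52.9% (38.5% to 67.1%) of the 51 without, and Clec10a in 92.3% (64.0% to 99.8%) against 37.3% (24.1% to 51.9%). In the non-diabetic library Cd209a was in 68.8% of the 48 cells with Mgl2 and in 73.3% of the 75 without, and Clec10a in 87.5% and 78.7%, with intervals that overlap. Irf4, which encodes a transcription factor of dendritic cells and of alternative activation, was in 47.9% (33.3% to 62.8%) of non-diabetic cells with Mgl2 and in 28% (18.2% to 39.6%) of those without, again with intervals that overlap. Cells with Mgl2 were also the deeper ones, at a median of 21948 against 18278 UMIs in the non-diabetic and 21586 against 18761 in the diabetic library, and the part of depth in these shares was not tested.

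One non-diabetic cell held 200 of the 999 Mgl2 UMIs. It fell in the Ctsk-led cluster, was deep (70232 UMIs), and also had 63 Ear2, 87 Mrc1, 30 Cd209a and 11 Clec10a UMIs but 1 of Chil3 and 0 of Folr2. Scrublet did not mark it as a doublet. With the top cell of each library left out, the Mgl2 log2 ratio over all cells was -5.53, and with the clusters mostly from 1 library left out, this cell's among them, it was -3.53.

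The sequence before Mgl2 (chr11:70130107-70130328, plus strand, 222 bases) is shown as that of a member with one of the largest differences. It has 1 match to AGGAAGT, in capitals at its upstream end, and no match to either STAT-type palindrome.
Mgl2 promoter: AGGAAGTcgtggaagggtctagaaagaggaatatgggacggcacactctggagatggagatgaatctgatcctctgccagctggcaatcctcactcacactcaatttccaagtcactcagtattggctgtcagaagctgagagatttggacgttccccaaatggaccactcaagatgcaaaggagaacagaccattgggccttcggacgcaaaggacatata

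Retnla encodes the secreted protein RELM-alpha, also called FIZZ1, and spans chr16:48842551-48844461 on the plus strand. It was rare: 109 UMIs in 7 of 1123 non-diabetic cells and 5 UMIs in 2 of 1755 diabetic cells. The levels were 7.06 (5.80 to 8.52) and 0.164 (0.0533 to 0.383) CPM, 43.0-fold lower in the diabetic library, a log2 ratio of -5.43 (-7.08 to -4.16). After thinning, 5 of 1086 non-diabetic cells (0.460%, 0.150% to 1.07%) and 0 of 1730 diabetic cells had a UMI. Thinning removed the 5 diabetic UMIs, and 0 of 1730 limits the share of cells with a UMI at 2000 UMIs a cell, to 0.213%, and not the share that expresses the gene.

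A single cell carried most of the Retnla count. It held 83 of the 109 non-diabetic UMIs, lay in the resident-like Ccl8-led cluster, and also had 29 Mrc1, 17 Folr2, 11 Mgl2 and 3 Clec10a UMIs, along with 44 of Lyve1 and 27 of Cd163, which are genes of resident macrophages. The other non-diabetic cells had 12, 8, 2, 2, 1 and 1 Retnla UMIs. Of these cells 3 were in the mixed Igfbp7-led cluster, 1 in the macrophage-like, 1 in the dendritic cell-like and 1 in the Ccl5-led cluster. The one in the macrophage-like cluster, with 12 Retnla UMIs, had only 2033 UMIs in all. It had 1 UMI of Mrc1 and 0 of C1qa, Cd163 and Lyve1. The diabetic cells had 4 and 1 Retnla UMIs. Under the same stricter filter, which removed the top cell, the Retnla log2 ratio was -2.37.

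Barcodes that missed the cell filter also held Retnla. Of 903 such non-diabetic barcodes 13 had 95 Retnla UMIs in all, of which 47 were in 1 barcode with 41.4% mitochondrial UMIs, and the 459 diabetic ones had 0. Retnla was thus in the non-diabetic library inside and outside the filter, in few barcodes each time.

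The Retnla promoter (chr16:48842359-48842550, plus strand, 192 bases) is shown because it holds the palindrome TTCNNNNGAA, the spacing that STAT6 prefers, 87 to 78 bases before the start. An AGGAAGT match on the minus strand, printed as ACTTCCT, lies 140 to 134 bases before the start. Capitals mark both.
Retnla promoter: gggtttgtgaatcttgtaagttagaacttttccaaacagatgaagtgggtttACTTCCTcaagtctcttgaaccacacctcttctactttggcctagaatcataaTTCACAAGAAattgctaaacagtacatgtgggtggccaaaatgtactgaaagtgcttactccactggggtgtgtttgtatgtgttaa

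Of the 7 members that matched the promoter table, Retnla had the one TTCNNNNGAA match and Chil3 the one TTCNNNGAA match, while AGGAAGT matched in 5 members, Retnla, Chil3, Mrc1, Folr2 and Mgl2. Both strands were searched, the 2 palindromes read the same way on either strand, no match overlapped another, and TATAAA was found in none. Among 32544 promoters of 250 bases, 5.89% held TTCNNNNGAA, 7.04% TTCNNNGAA, 7.70% AGGAAGT and 12.3% TATAAA. Windows of the members were cut at the annotated start, and the Il4ra window was 99 bases long. These are letters in a window and not measured binding.

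**Figure D3:**
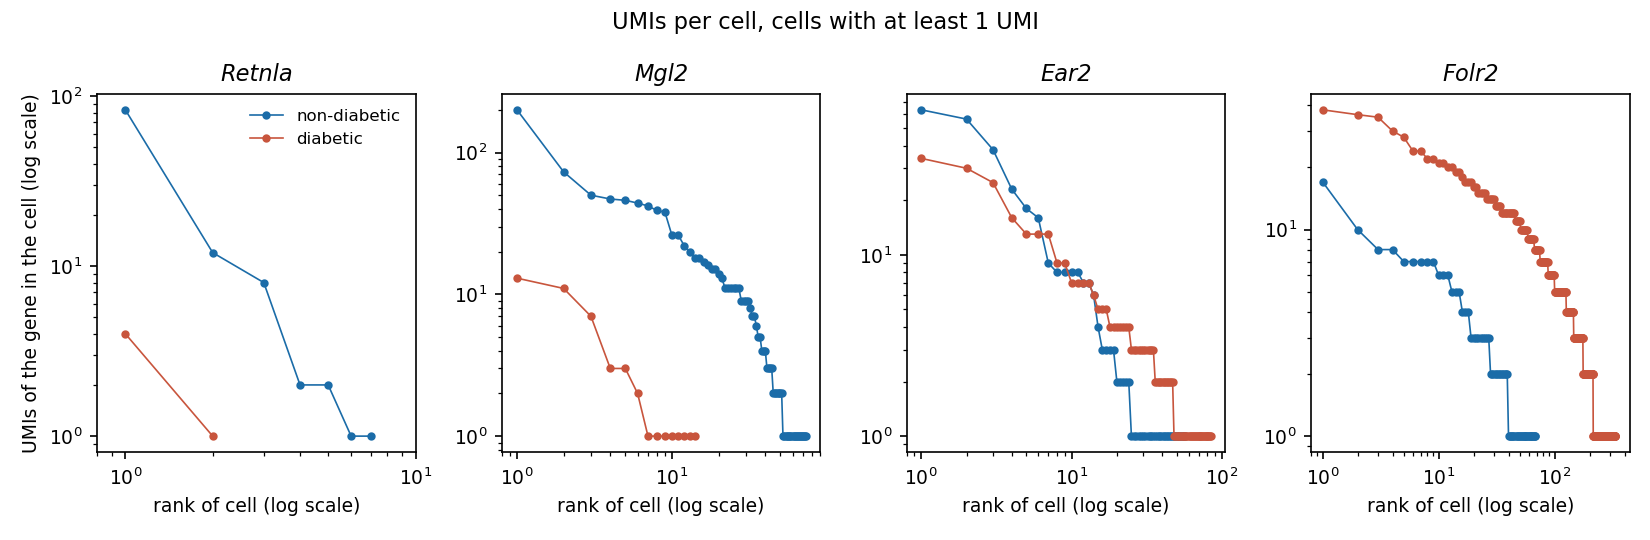
UMIs of Retnla, Mgl2, Ear2 and Folr2 in each cell with at least 1 UMI, ranked from the highest, both axes on a log scale, for the non-diabetic (blue) and diabetic (red) library. Retnla drops from 83 to 12 UMIs between its first and next non-diabetic cell, and Folr2 is spread over 68 non-diabetic and 332 diabetic cells.

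Ear2 encodes a ribonuclease of the eosinophil-associated family that myeloid cells also express, and spans chr14:44102654-44103534 on the plus strand. It had 334 and 333 UMIs, or 21.6 (19.4 to 24.1) CPM in the non-diabetic and 10.9 (9.80 to 12.2) in the diabetic library, a log2 ratio of -0.98 (-1.21 to -0.76). The share of cells was alike, 5.08% and 4.79%. With the clusters mostly from 1 library left out, the Ear2 log2 ratio turned to 0.52. Few cells made up the count: 4 non-diabetic and 10 diabetic cells held 50% of the UMIs, and the deep cell of the Ctsk-led cluster alone held 18.9% of the non-diabetic ones.

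By cluster, Ear2 was at 39.8 and 62.3 CPM in the monocyte-like cluster, 52.3 and 58.5 in the mixed Igfbp7-led cluster and 20.9 and 40.8 in the dendritic cell-like cluster. It was at 0 UMIs in the Cd163-led, Ccl8-led and Ms4a7-led cells of both libraries, where Mrc1 was high. Eosinophils were not seen, with Epx and Ear1 at 0 and the 6 eosinophil markers summing to 17 and 22 UMIs. Ear2 matches Ear10 at 97.0% over 471 bases and Ear1 at 96.4% over 713 bases, and Ear1, Ear10 and Ear14 had 0 UMIs, so the split of reads within the family is uncertain.

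Il4ra encodes the receptor chain through which IL-4 and IL-13 act, and spans chr7:125552120-125579474 on the plus strand. Without thinning it was detected in 71.3% of non-diabetic and 81.5% of diabetic cells, and at 2000 UMIs a cell in 25.2% and 32.0%, below the 47.2% and 33.8% of Chil3. It had 2361 and 6585 UMIs, or 153 (147 to 159) and 216 (211 to 222) CPM. The log2 ratio was 0.50 (0.43 to 0.57), 1.41-fold higher in the diabetic library. Its range over clusters was narrow beside that of the other members. Among profiles of at least 30 cells, the highest level was 509 CPM in the diabetic Cd163-led cluster, followed by 347 in the diabetic Ms4a7-led cluster, and the lowest were 50.6 in the diabetic Ctsk-led and 54.6 in the diabetic Igfbp7-led cluster. The monocyte-like cells had 150 and 248, and the dendritic cell-like cells 154 and 155.

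Other genes of the pathway differed in both directions. Of a list of 36 pathway genes 31 were measured, of which 3 were at least 2-fold higher and 7 at least 2-fold lower, with a median log2 ratio of -0.48, beside 9.06% higher, 6.54% lower and a median of 0.12 over all measured genes. Among 9 measured signalling genes 0 were higher and 1 was lower, the inhibitor gene Cish (20.2 and 4.27 CPM, log2 ratio -2.24). The co-receptor genes Il13ra1 (-0.12) and Il2rg (0.00), the kinase gene Jak1 (0.13) and Stat6 (-0.04) had log2 ratios near 0. The cytokines themselves, named here as the ligands, had few counts, with 4 UMIs of Il4 in 1 non-diabetic cell and 1 UMI of Il13 in the diabetic library. Of 8 regulators 1 was higher and 1 lower, Ppargc1b (1.11) and Irf4 (-1.62), named after their values were seen. Klf4 was at 262 and 324 CPM and the histone demethylase gene Kdm6b at 389 and 224.

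Among 14 measured target genes 2 were at least 2-fold higher and 5 at least 2-fold lower, beside the same 9.06% and 6.54%. The chemokine genes were in this last group. Ccl24, an eosinophil attractant, was at 201 and 24.1 CPM (log2 ratio -3.06), Ccl17 at 20.4 and 0.657 (-4.95) and Ccl22, which like Ccl17 binds CCR4, at 25.5 and 0.131 (-7.60). The Cd209a-led cluster held 298 of the 314 non-diabetic Ccl17 UMIs, 67.2% of the 314 being in 1 cell, and 387 of the 393 of Ccl22, with 50% in 2 cells. Of the 3095 non-diabetic Ccl24 UMIs 1503 were in the mixed Igfbp7-led cluster, 1226 in the Inhba-led and 35 in the Cd209a-led cluster. The Inhba-led cluster held 302 non-diabetic and 2 diabetic cells. The part of the lower dendritic cell markers in the Ccl17 and Ccl22 ratios was not tested. Pdcd1lg2 (-1.46) and Socs2 (-1.80) completed the 5 and, with Atp6v0d2 (2.66) among the higher, were named after their values were seen. Slc7a2, a cationic amino acid transporter gene, was at 11.7 and 108 CPM, a log2 ratio of 3.21, with 2850 of its 3289 diabetic UMIs in the Stfa3-led cluster, which held 1 non-diabetic cell. Arg1, which encodes arginase, was at 2478 and 1881 CPM (-0.40). Arg1 stood at 8566 CPM in the non-diabetic Inhba-led, 1541 in the non-diabetic Impa2-led and 1421 in the non-diabetic Ifit3-led cluster. In the diabetic library it was at 4715 in the Stfa3-led, 3567 in the Cd163-led, 1564 in the Nrg1-led and 259 in the Ifit3-led cluster. It was at 25.9 and 24.9 in the monocyte-like and 22.1 and 12.2 in the Cd209a-led cluster.

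Whether the 8 genes share cells was read from detection with every cell thinned to 2000 UMIs, which left out 37 non-diabetic and 25 diabetic cells of lower depth. Most cells had few of the 8 genes. In the non-diabetic library 279 cells had none, 505 had 1, 251 had 2, 44 had 3 and 7 had 4, and in the diabetic library the numbers were 511, 642, 420, 140 and 17. No cell had 5 or more. Of the 28 gene pairs, 14 in the non-diabetic library had an odds ratio of co-detection above 1 and 14 below. In the diabetic library 10 were above 1, of which the pairs of Mgl2 with Mrc1 and with Ear2 rested on 1 cell each, 11 were below 1, and the 7 pairs with Retnla gave no ratio. Only 1 thinned diabetic cell had an Mgl2 UMI. Never in the same cell were 12 diabetic pairs, those with Retnla among them, and 4 non-diabetic pairs. Ratios below 1 that rest on so few cells do not show a separation. Another random draw of the 2000 UMIs gave 17 non-diabetic and 11 diabetic pairs above 1, so these counts depend on the draw. Without thinning, 19 pairs were above 1 in each library.

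Mrc1 and Folr2 were found in the same cells in both libraries. Folr2 was detected in 8.42% (4.98% to 13.1%) of non-diabetic cells with Mrc1 and in 1.13% (0.544% to 2.07%) of those without, an odds ratio of 8.03. In the diabetic library the shares were 12.0% (9.40% to 14.9%) and 3.19% (2.25% to 4.37%), an odds ratio of 4.12. Compared within clusters, as a Mantel-Haenszel odds ratio, the values were 5.12 and 1.51, and the difference between the libraries was not tested.

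Il4ra was more frequent in cells with Mrc1 in the diabetic library, and not in the non-diabetic. It was in 42.9% (38.8% to 47.1%) of diabetic cells with Mrc1 and 26.6% (24.1% to 29.3%) of those without, against 24.8% (19.0% to 31.3%) and 25.3% (22.5% to 28.4%) in the non-diabetic library. The difference between the libraries was not tested. Clec10a and Mrc1 had odds ratios of 1.57 and 2.57. Mgl2 and Clec10a, the 2 neighbouring lectin genes, had an odds ratio of 13.6 in the non-diabetic library, with Clec10a in 51.4% (34.0% to 68.6%) of cells with Mgl2 and 7.23% (5.74% to 8.97%) of those without, and 2.07 within clusters.

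In the non-diabetic library Chil3 was found less often with Mrc1, Clec10a, Folr2 and Mgl2 than independence gives, and the difference from the diabetic library was not tested. In the non-diabetic library 60 cells had both Chil3 and Mrc1 where independence would give 95.4, an odds ratio of 0.40 and of 0.45 within clusters. The diabetic library had 200 such cells where independence would give 192.4, an odds ratio of 1.09. The Chil3 odds ratios with Clec10a were 0.24 and 0.79 and those with Folr2 0.19 and 0.44, and that with Mgl2 was 0.10 in the non-diabetic library. Ear2 was found with Chil3 more often than independence gives in both libraries, with odds ratios of 1.61 and 3.09, from 10 and 14 cells. Folr2 and Ear2 were never in the same thinned cell in either library, where independence would give 0.423 and 1.40 cells, counts too small to show a separation.

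Clusters differed in how many cells had Chil3, Mrc1 or both. Of all thinned cells, 41.7% of the non-diabetic had Chil3 without Mrc1, 13.1% Mrc1 without Chil3 and 5.52% both, against 22.3%, 21.3% and 11.6% of the diabetic. In the monocyte-like cluster 74.5% and 78.0% had Chil3 alone and 1.86% and 5.49% had both. In the diabetic Ccl8-led cluster 67.3% had Mrc1 alone. Cells with both were most frequent in the diabetic Tmem176b-led macrophage-like cluster, at 28.4%, or 77 of its 271 cells, and this cluster held only 10 non-diabetic cells. Each gene was common there, with Chil3 in 146 and Mrc1 in 150 of the 271 cells. A further 69 cells had Chil3 alone, 73 had Mrc1 alone and 52 had neither. Cells with both were thus not more frequent in this cluster than independence gives.

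**Figure D4:**
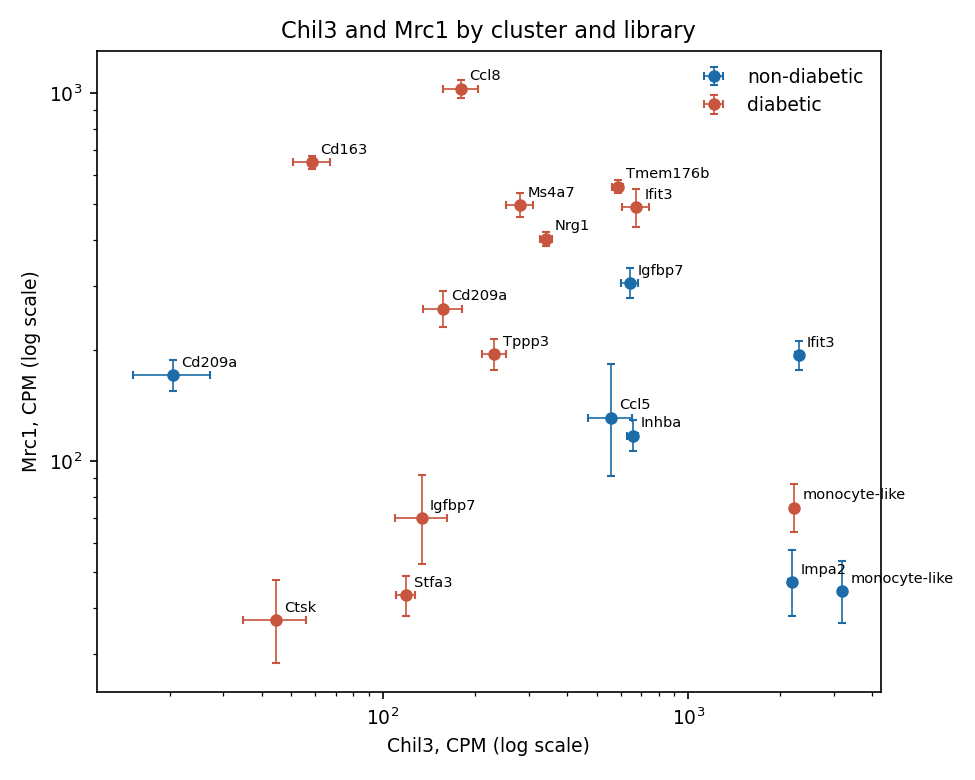
Chil3 against Mrc1 in CPM, both on log scales, for each cluster and library with at least 30 cells, with exact Poisson 95% intervals. The monocyte-like and Impa2-led clusters lie at high Chil3 and low Mrc1, the Ccl8-led and Cd163-led clusters at high Mrc1 and low Chil3, and the diabetic Tmem176b-led and Ifit3-led clusters are high in both.

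Arg1, the best known product of the same response, also did not go with all members. Its odds ratios of co-detection were 2.38 and 3.32 with Folr2, 0.94 and 0.95 with Mrc1, 0.66 and 0.31 with Chil3, and 0.15 and 0.42 with Clec10a. Of the members with a ratio, Folr2 had the highest with Arg1 in both libraries, and within clusters its odds ratios were 1.72 and 2.91.

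The libraries could be set side by side within the 4 clusters that held at least 30 cells of each. In the monocyte-like cluster, where 3.57% of 8511 measured genes were 2-fold higher and 3.91% 2-fold lower in the diabetic library, no member passed 2-fold: Chil3 had a log2 ratio of -0.52 (-0.57 to -0.47), Mrc1 of 0.75 (0.40 to 1.11), Ear2 of 0.65 (0.27 to 1.03) and Il4ra of 0.73 (0.53 to 0.92). In the Ifit3-led cluster (6.39% higher, 8.17% lower) Chil3 had -1.77 (-1.92 to -1.62) and Mrc1 1.34 (1.12 to 1.55). Of the 278 Mrc1 UMIs in the 35 diabetic cells there, 69 were in 1 cell. Clec10a (1.32), Il4ra (-0.27) and Ear2 (0.24) had the opposite direction there to all cells, and Folr2 (0.27) the same. The intervals of Il4ra, Ear2 and Folr2 spanned no difference. The monocyte-like and interferon clusters thus had the same direction as all cells for Chil3 and Mrc1.

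The dendritic cell-like cluster had the opposite direction to all cells for Chil3, and the mixed Igfbp7-led cluster for Mrc1. In the dendritic cell-like cluster (3.55% higher, 6.38% lower) Clec10a had a log2 ratio of -0.50 (-0.66 to -0.35), Mrc1 of 0.60 (0.38 to 0.82) and Il4ra of 0.01 (-0.25 to 0.27). Chil3 there had 49 UMIs in 17 of 123 non-diabetic and 181 in 7 of 64 diabetic cells, a log2 ratio of 2.94 (2.48 to 3.43), and 1 cell held 65.3% of the former and 1 cell 51.9% of the latter. In the mixed Igfbp7-led cluster (12.2% higher, 9.35% lower) Chil3 had -2.26 (-2.57 to -1.97) and Mrc1 -2.12 (-2.55 to -1.71), the only one of these 4 clusters where Mrc1 was lower in the diabetic library. Mgl2 had 83 UMIs in the non-diabetic and 0 in the diabetic cells of that cluster, at least 14.3-fold lower against a floor of 3 counts in the diabetic sum.

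Levels across the 19 profiles, 1 for each cluster and library with at least 30 cells, over 15 clusters, gave the same grouping as a description. Profiles share libraries and depth and are not independent. Pearson's r of log2(CPM + 10) was 0.69 for Mrc1 and Folr2, 0.62 for Mgl2 and Clec10a and 0.55 for Mrc1 and Il4ra. It was -0.48 for Chil3 and Clec10a, -0.51 for Folr2 and Ear2 and -0.17 for Chil3 and Mrc1. The genes most like Mgl2 over these profiles were Ccl17 (r 0.96), Cd209a (0.93) and Irf4 (0.91), and those most like Folr2 were Cbr2 (0.97), Wwp1 (0.95) and Scamp5 (0.92). Chil3 was most like Cd177 (0.88), Klra2 (0.88) and Mefv (0.87), and Clec10a most like Tbc1d4 (0.89), Ckb (0.87) and Zfp422 (0.87). For Mrc1 they were Dip2b (0.87), Ap1b1 (0.85) and Dctn5 (0.85), for Il4ra Arnt (0.85), Gatsl2 (0.84) and Inpp5k (0.83), and for Ear2 Lmo1 (0.83), Pglyrp1 (0.79) and Prkcd (0.79). The Retnla profile rests on too few cells to name a likeness.

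Relatives of the members were measured as well. Retnlb, Chil4, Chia1, Ear1, Ear10 and Ear14 had 0 UMIs in both libraries, and Ear6 and Folr1 each had 2 non-diabetic and 1 diabetic UMI. For the Ear genes a 0 is uncertain, since reads can be split or dropped between near-identical copies. Retn had 11 non-diabetic and 59 diabetic UMIs, and Chil1 had 0 and 20. Retnlg, a neutrophil gene of the Retnla family, went the other way from Retnla, with 11 non-diabetic and 796 diabetic UMIs, and led the neutrophil-like cluster. Retnla and Retnlg transcripts align at 82.8%, and Chil3 and Chil4 at 94.3%.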

How the data were processed

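The deposited matrices are unnormalised UMI counts that the authors made with Cell Ranger version 3.0.2, per the file headers. The submitters' processing notes name the build mm10. Which annotation was used, and how cells were called, is not given in the sources used here. Groups came from the disease state in the labels. The members, the pathway and marker lists and the tests were chosen with earlier results of these data known. Counts were summed over kept cells and given as CPM. Clustering used scanpy version 1.11.5 and leidenalg version 0.10.2 with 2000 variable genes without the members, 30 components, 15 neighbours, resolution 1 and no batch correction. A cluster took a name from at least 3 markers and 50% of a set at 2-fold or more in at least 10% of its cells. That set also had to have as many genes as any other set among the 10 leading genes of the cluster. Doublets were kept: Scrublet marked 0.267% and 0.285% of cells, and these low shares mean that doublets may remain. Of 6 barcodes shared between the libraries, 1 was among kept cells in both. A gene was measured with at least 20 UMIs. The 8 members were always named, pathway genes where they reached 20 CPM, and for each member the 3 genes most alike over profiles among those with at least 200 UMIs. Ratios used conditional exact binomial intervals. Their coverage was tested on simulated Poisson counts, the model they assume, so UMIs concentrated in few cells were not covered. BLAST version 2.17.0 compared transcripts. Alternative scalings used edgeR version 4.0.16 and DESeq2 version 1.42.0. Gene positions are from the GENCODE annotation of mm10.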

Additional observations from a re-analysis of the deposited data

Results flagged for a closer look

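In 3 genes the diabetic library was higher in one cluster and lower in another, and no difference between clusters was tested. Chil3 had a log2 ratio of 2.94 in the Cd209a-led cluster and -2.26 in the Igfbp7-led cluster. Clec10a had 1.32 (0.60 to 2.03) in the Ifit3-led cluster and -0.87 (-1.52 to -0.24) in the monocyte-like cluster. Mrc1 had 1.34 in the Ifit3-led cluster and -2.12 in the Igfbp7-led cluster.

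The barcodes that missed the cell filter, left out of the main comparisons, held the 8 genes above the level that 3 counts would give (1.41 and 2.32 CPM). Their summed level was 1202 CPM in 903 non-diabetic barcodes and 1239 in 459 diabetic ones, beside 1918 and 1092 in kept cells. Mrc1 had 723 and 748 of these UMIs and Chil3 1159 and 176.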

How the results depend on the processing

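Over 11 alternatives each, the log2 ratio of 6 members kept its sign: Chil3 from -2.06 to -0.67, Mrc1 from 0.89 to 1.32, Folr2 from 1.88 to 3.07, Il4ra from 0.38 to 0.64, Retnla from -7.88 to -2.37 and Mgl2 from -9.15 to -3.53, with the low ends of these 2 resting on 1 diabetic UMI each. Clec10a turned to 1.38 with dendritic, neutrophil and mixed clusters left out, and Ear2 to 0.52 with clusters mostly from 1 library left out. The count of members at least 2-fold higher was 1 in place of 2 with cells of at least 200 genes and under 20% mitochondrial UMIs, with all barcodes, with TMM or DESeq2 size factors, without clusters mostly from 1 library, and without the Inhba-led cluster, an alternative chosen after seeing the data, which also gave 5 in place of 3 at least 2-fold lower. Pathway genes at least 2-fold higher numbered 5 in place of 3 with no count minimum. Without thinning, 19 diabetic pairs in place of 10 were above 1. The cause of these shifts was not tested. No paired analysis was possible because each group has 1 library. Retnla and diabetic Mgl2 rest on few cells.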
